A study of Mus musculus with 4 samples.

Results

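The genes described here are 10 components of the inflammasome and of the death pathways joined to it: the sensors Nlrp3 and Aim2, the NLRP3 partner Nek7, the adaptor Pycard (ASC), the caspases Casp1, Casp4 and Casp8, the pore former Gsdmd, and the necroptosis genes Ripk3 and Mlkl. They were taken by gene symbol from a table of 14435 genes, in which all 10 were listed, and 9 of them passed the filter on low counts that left 11035 genes for testing. The table holds 4 libraries of RAW264.7, an established mouse macrophage cell line. All 4 were treated with E. coli lipopolysaccharide (LPS) for 12 h, and 2 carried a nonspecific control shRNA while 2 carried an shRNA directed at Mettl3, which encodes the catalytic part of the RNA m6A methyltransferase. There was no library without LPS, so the values compare knockdown with control in LPS-treated cells and do not show induction by LPS.

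An inflammasome forms when a sensor detects a danger signal in the cytosol. NLRP3 responds to potassium efflux with the help of NEK7, and AIM2 binds double-stranded DNA. Both recruit the adaptor ASC, which gathers caspase-1. Caspase-1 matures the cytokines IL-1β and IL-18 and cleaves gasdermin D, whose released part opens pores in the plasma membrane and leads to pyroptosis. Caspase-11, encoded in the mouse by Casp4, binds cytosolic LPS directly and cleaves gasdermin D without ASC. Caspase-8 drives apoptosis and holds back necroptosis, in which RIPK3 phosphorylates MLKL and MLKL breaks the membrane. In macrophages LPS is the usual priming signal, since it raises transcription of Nlrp3 and of Il1b. RAW264.7 cells are known to lack ASC.

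The libraries held between 16342313 and 17193639 estimated counts, at which 3 counts, taken as the limit that a count of 0 allows, equal 0.174 to 0.184 CPM (counts scaled to a common library size). Mettl3 itself had control counts of 513.80 and 495.68 and shMettl3 counts of 194.16 and 195.34, a log2 fold change of -1.42 (SE 0.10). The treatment label of shMettl3 replicate 2 names METTL4, while its title and the design name Mettl3. Mettl4 counts were 439 and 404 against 410 and 432, and the library with that label showed the same Mettl3 fall as its partner. All 8 macrophage markers examined were detected, with summed TPM (a transcript level scaled to gene length) of 17470 and 16900 in the controls and 11790 and 11740 in the shMettl3 libraries: 6 of the 8 fell, Ptprc rose and Spi1 was not called. The defining markers of other cells were at or near 0: fibroblast markers summed to at most 0.82 TPM and lymphocyte markers to at most 0.16 TPM, dendritic cell markers lay between 0.60 and 0.97 TPM, and the neutrophil sum of 36.4 to 39.44 TPM was nearly all S100a8, with Mpo and Elane at 0 to 2 counts. The labels do not say whether replicates were separate cultures or whether the cells were a clone or a pool, so p-values measure the spread between these libraries, which may be technical. In bulk RNA fewer cells that express a gene and less RNA per cell cannot be told apart.

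Of the 9 genes tested, 6 rose in the shMettl3 libraries and none fell. Over all genes tested 21.4% rose and 22.3% fell. In CPM, 6 of the 9 had both shMettl3 libraries above both controls, a pattern that 37.1% of all genes tested showed. The median log2 fold change was 0.49 over the 9 genes and 0.0141 over all genes tested. A gene is called when the quasi-likelihood test of edgeR gives an adjusted p under 0.05 (Benjamini-Hochberg, over all genes tested), and adjusted p-values come from that test unless another fit is named. Of all calls, 48.9% were rises with TMM scaling, against 64.1% with library size alone, 63.1% on log2(FPKM + 1) and 70.0% on log2(TPM + 1).

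Among the sensors, Nlrp3 (Entrez gene 216799, chromosome 11) had the highest TPM of the 10 genes in every library. Its level was 578.5 and 536 CPM in the controls and 675.7 and 646.2 CPM in the shMettl3 libraries. The groups did not overlap, and the rise was 1.19-fold (95% interval 1.06 to 1.32; log2 fold change 0.25, SE 0.07, adjusted p = 0.0171). The call was lost without either shMettl3 library, where the log2 fold change was 0.215 (without replicate 1) and 0.277 (without replicate 2). Fits without a shMettl3 library also called fewer genes over the whole table, so a call lost there is not particular to Nlrp3. Aim2 (383619, chromosome 1) stood at 58.68 and 57.55 CPM in the controls and 86.86 and 78.8 CPM in the shMettl3 libraries, 1.43-fold higher (1.27 to 1.60; log2 fold change 0.51, SE 0.08, adjusted p = 0.000298). The Aim2 groups were separated by far more than either pair of libraries differed. Nek7 (59125, chromosome 1), a kinase family protein that bridges NLRP3 subunits, stood at 40.98 and 39.11 CPM against 59.97 and 58.68 CPM, 1.48-fold higher (1.32 to 1.66; log2 fold change 0.57, SE 0.07, adjusted p = 0.000129). Per gene length Nek7 was the lowest of the 9 genes tested, and the NLRP3 to NEK7 transcript ratio in TPM was 15.5 and 15 in the controls and 12.3 and 12.1 in the shMettl3 libraries.

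Pycard (66824, chromosome 7), the adaptor that links NLRP3 and AIM2 to caspase-1, was nearly absent from the table. It had 1, 0, 1 and 0 counts in control 1, control 2, shMettl3 1 and shMettl3 2, that is 2 of the 67446173 estimated counts in all. It did not pass the filter and was not tested, and no difference could be detected at this depth. Every value for the sensors and for caspase-1 therefore comes from cells with almost no transcript of the adaptor.

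The inflammatory caspases rose most. Casp1 (12362, chromosome 9) stood at 110.3 and 93.16 CPM in the controls and 193.9 and 178.8 CPM in the shMettl3 libraries, 1.83-fold higher (1.60 to 2.10; log2 fold change 0.87, SE 0.09, adjusted p = 2.98e-05). Casp4 (12363, chromosome 9), which encodes caspase-11, stood at 59.94 and 46.82 CPM against 123.7 and 106.6 CPM, 2.16-fold higher (1.73 to 2.68; log2 fold change 1.11, SE 0.13, adjusted p = 0.000685). In both genes the lower shMettl3 library was well above the higher control. Both kept the call in all 15 alternative analyses, where the log2 fold change ran from 0.64 to 1.01 for Casp1 and from 0.88 to 1.29 for Casp4. Casp8 (12370, chromosome 1) stood at 122.2 and 110.9 CPM against 163.2 and 163.7 CPM, 1.40-fold higher (1.25 to 1.57; log2 fold change 0.49, SE 0.07, adjusted p = 0.000323).

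The promoter windows of Casp1 and Casp4, which lie next to each other on chromosome 9 and rose together, and of Nlrp3, the most abundant member, are shown to set the letters of genes that rose side by side. RefSeq (GRCm38.p6) gives windows of 300 bases, from 250 before to 50 after a start site, for 9 of the 10 genes. Capitals mark matches on either strand to the core of interferon regulatory factor sites, AANNGAAA, which 23.9% of all 32851 windows hold. The windows are Casp1 at chr9:5298267-5298566 (plus strand), Casp4 at chr9:5308599-5308898 (plus strand) and Nlrp3 at chr11:59542436-59542735 (plus strand).
Casp1: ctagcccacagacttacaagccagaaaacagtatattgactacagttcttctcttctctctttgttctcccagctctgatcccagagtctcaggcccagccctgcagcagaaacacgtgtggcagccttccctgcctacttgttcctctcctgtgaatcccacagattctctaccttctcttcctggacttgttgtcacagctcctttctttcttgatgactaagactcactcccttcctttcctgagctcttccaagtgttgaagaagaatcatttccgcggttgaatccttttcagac
Casp4: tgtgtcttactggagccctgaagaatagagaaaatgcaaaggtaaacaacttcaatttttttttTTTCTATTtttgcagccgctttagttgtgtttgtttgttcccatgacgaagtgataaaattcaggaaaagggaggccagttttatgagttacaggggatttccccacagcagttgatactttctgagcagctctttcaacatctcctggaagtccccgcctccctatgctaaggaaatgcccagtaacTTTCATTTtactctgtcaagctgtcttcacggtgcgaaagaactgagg
Nlrp3: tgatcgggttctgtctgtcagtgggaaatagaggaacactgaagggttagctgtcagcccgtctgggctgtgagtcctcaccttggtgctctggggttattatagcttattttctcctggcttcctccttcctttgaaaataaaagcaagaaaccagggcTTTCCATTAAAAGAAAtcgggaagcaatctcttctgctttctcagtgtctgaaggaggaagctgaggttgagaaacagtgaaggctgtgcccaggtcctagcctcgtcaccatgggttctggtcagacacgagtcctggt
The Casp1 window held no match to any of the 5 motifs searched on both strands: the interferon regulatory core, the gamma-activated sequence TTCNNNGAA (8.30% of windows), the PU.1 element GAGGAAG (13.6%), the AP-1 element TGANTCA (7.81%) and the NF-kB consensus (8.46%). The Casp4 window held the interferon regulatory core beginning 186 bases before the start site and again at base 3 counted from it, and 3 NF-kB matches beginning 93, 92 and 39 bases before it, of which those at 93 and 92 overlap. The Nlrp3 window held adjoining interferon regulatory cores beginning 90 and 82 bases before the start site and PU.1 matches at 130 and 36 bases before it. RefSeq lists a second window for Nlrp3, at chr11:59541319-59541618, with an interferon regulatory core at 222 and an NF-kB match at 186 bases before its start site. It also lists a second, overlapping window for Casp4, at chr9:5308610-5308909. There the cores begin 197 and 9 bases and the NF-kB matches 104, 103 and 50 bases before its start site, so the Casp4 positions depend on the start site chosen. Among the other genes, Casp8 had interferon regulatory cores at 171 and 108 bases before its start site, Aim2 a PU.1 match at 113 bases, and Pycard a core at 160 and a PU.1 match at 43 bases. Nek7, Ripk3 and Mlkl had no match to the 5 motifs, and Gsdmd had no window. Of the genes that rose, Nlrp3, Aim2, Casp4 and Casp8 held a match, while Casp1 and Nek7 held none. A link between matches and rises was not tested. A match is a description of letters, and factor binding was not measured.

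Gsdmd, Ripk3 and Mlkl, which act in membrane pore formation and necroptosis, were not called. Gsdmd (69146, chromosome 15) stood at 141.1 and 113 CPM in the controls and 111.3 and 106 CPM in the shMettl3 libraries. Both shMettl3 libraries were below both controls in CPM, but control 2 lay close to them, the TPM values of the groups overlapped (134.69 and 104.42 against 114.44 and 109.5), and the change was not called (log2 fold change -0.23, SE 0.10, 95% interval -0.46 to 0.0055, adjusted p = 0.104). Without control replicate 2, Gsdmd was called lower (-0.38, adjusted p = 0.000259), and without control replicate 1 it was not (-0.0699, adjusted p = 0.438). Ripk3 (56532, chromosome 14) stood at 64.93 and 68.03 CPM against 65.86 and 66.73 CPM, the shMettl3 values lying between the controls, with a fold of 0.997 (95% interval 0.895 to 1.11, adjusted p = 0.969). Mlkl (74568, chromosome 8) stood at 119.1 and 94.6 CPM against 104.9 and 91.85 CPM, with overlapping groups and a fold of 0.92 (0.755 to 1.12, adjusted p = 0.462). Without control replicate 2, Mlkl was called lower (log2 fold change -0.28, adjusted p = 0.0122). The sign of the Mlkl estimate turned on the log2(TPM + 1) scale (0.029) and without control replicate 1 (0.0437), and that of Ripk3, whose estimate is near 0, turned under 6 of 15 alternatives.

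**Figure D1:**
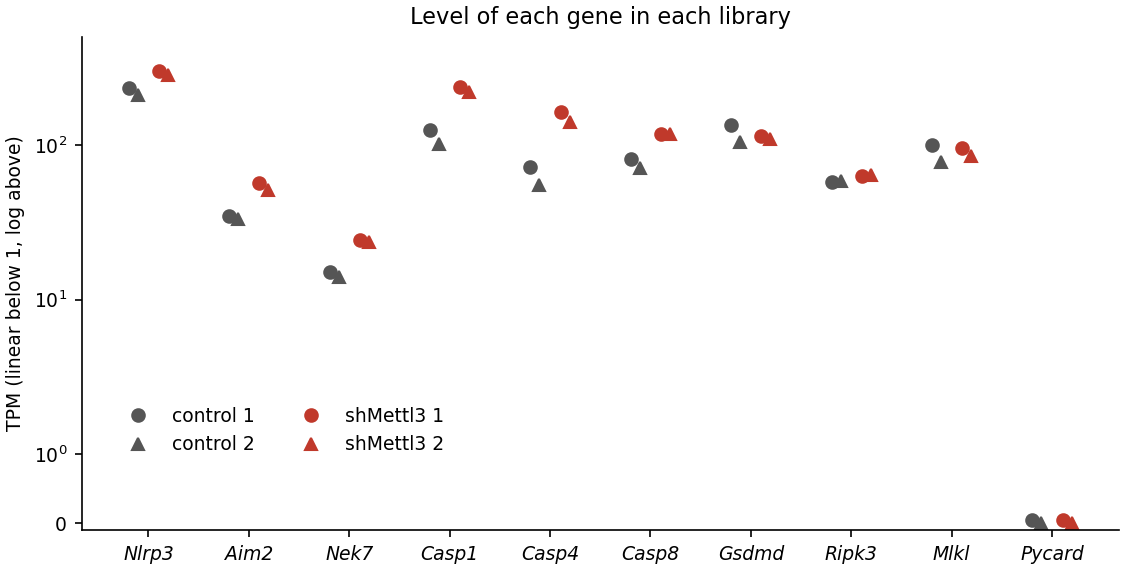
Level of each of the 10 genes in each of the 4 libraries, in TPM (linear below 1, log above; grey control, red shMettl3, circles replicate 1, triangles replicate 2). The shMettl3 points of Casp1, at 235.91 and 219.07 TPM, lie above its controls at 124.43 and 101.81 TPM, those of Gsdmd, Ripk3 and Mlkl lie near their controls, and Pycard is at or near 0.

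Levels per gene length can be ordered across genes in TPM. In the controls the order was Nlrp3 (mean 222 TPM), Gsdmd (120), Casp1 (113), Mlkl (88.8), Casp8 (76.0), Casp4 (63.6), Ripk3 (57.9), Aim2 (34.0), Nek7 (14.5) and Pycard (0.025). The 2 control values of Gsdmd and Casp1 overlapped, as did those of Mlkl and Casp8, of Casp8 and Casp4, and of Casp4 and Ripk3. In the shMettl3 libraries the order was Nlrp3 (291 TPM), Casp1 (227), Casp4 (151), Casp8 (118), Gsdmd (112), Mlkl (90.0), Ripk3 (63.6), Aim2 (53.8) and Nek7 (23.8), and no neighbours among these overlapped. All 3 caspases thus stood above Gsdmd, Mlkl and Ripk3 in the shMettl3 libraries, whereas Casp4 and Casp8 stood below Gsdmd in the controls. The TPM ratio of Casp1 to Gsdmd was 0.924 and 0.975 in the controls and 2.06 and 2 in the shMettl3 libraries. That of Casp4 to Gsdmd was 0.535 and 0.528 against 1.42 and 1.28. These ratios do not depend on the scaling between libraries, and in both the groups lay far apart. Casp8 to Mlkl gave 0.806 and 0.92 against 1.23 and 1.40. The summed TPM of the 9 tested genes was 854 and 725.4 in the controls and 1169 and 1094 in the shMettl3 libraries.

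Of the 6 rises, 5 lay on chromosomes 1 and 9. All 5 tested members on chromosomes 1 and 9 (Aim2, Nek7, Casp8, Casp1 and Casp4) rose, against 1 of the 4 on other chromosomes (Nlrp3). Chromosome 1 as a whole was shifted: 388 of its 644 tested genes rose (60.2%), with a median log2 fold change of 0.397. On chromosome 9, 248 of 616 rose (40.3%), with a median of 0.207. The first 308 tested genes of chromosome 9 in order, where Casp1 and Casp4 are the 6th and 7th, had a median of 0.362, and the remaining 308 had a median of 0.0363. On the other 17 autosomes between 13.0% and 24.2% of genes rose and medians ran from -0.122 to 0.0477. Gene order was taken from RefSeq (GRCm38.p6), while the counts were made on mm9. DNA copy number was not measured in these libraries, and its part in the rises was not tested.

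**Figure D2:**
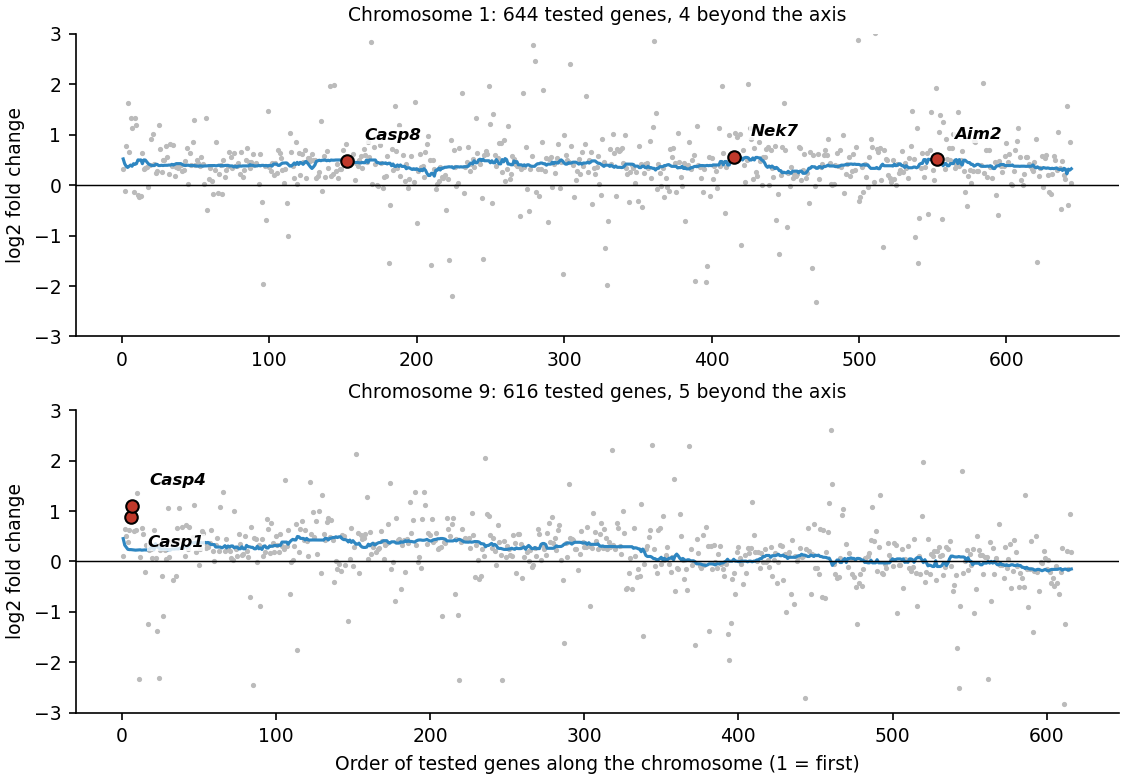
Log2 fold change (shMettl3 over control, vertical axis) of every tested gene on chromosomes 1 and 9 by its order along the chromosome (horizontal axis); grey points are genes, the blue line is the median of the up to 40 tested protein-coding genes around each position and red points are members. The line stays above 0 along chromosome 1 and falls to near 0 past the middle of chromosome 9, Casp8, Nek7 and Aim2 lie on it, and Casp1 and Casp4 lie above it.

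Each member was then set beside its chromosomal neighbours, up to 20 tested protein-coding genes on each side. For Aim2 the neighbours' median log2 fold change was 0.51, equal to that of Aim2 to 2 decimals, and 20 of 40 neighbours had a value at or above it. Those neighbours include the run of Ifi genes and Mndal next to Aim2, with values from -0.665 (Ifi213) to 1.385 (Ifi214). The part of this run in the median was not tested. For Casp8 the median was 0.474, with 31 of 40 neighbours called higher and 20 of 40 at or above Casp8. For Nek7 it was 0.489, with 28 of 40 called higher and 14 of 40 at or above Nek7. The 3 members on chromosome 1 thus moved about as much as the genes around them. Around Casp1 and Casp4 the medians were lower, at 0.235 (24 neighbours) and 0.231 (25 neighbours), and in each case 1 neighbour had a value at or above the member. Of the tested genes nearest to the pair, Aasdhppt, Msantd4, Dync2h1 and Dcun1d5 rose, with log2 fold changes of 0.51, 0.62, 0.60 and 0.62, and Kbtbd3 (0.39) was not called. The adjoining caspase gene Casp12 had 0, 0, 1 and 0 counts. Around Nlrp3 the median was 0.0071 and 8 of 40 neighbours were at or above it, and around Gsdmd, Ripk3 and Mlkl medians lay between -0.058 and 0.068.

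When the neighbours' median was taken off each gene's fold change in the same edgeR test, an alternative added after seeing the data, 3 of the 6 rises were no longer called. Over all 11035 genes tested, 2057 rose and 2381 fell in that fit, against 2360 and 2466 without the removal. Aim2 had a log2 fold change of 0.00074 (SE 0.08, adjusted p = 0.995), Casp8 of 0.014 (SE 0.07, adjusted p = 0.893) and Nek7 of 0.078 (SE 0.07, adjusted p = 0.431). Casp1 kept a rise of 0.64 over its neighbours (SE 0.09, adjusted p = 0.000283), Casp4 one of 0.88 (SE 0.13, adjusted p = 0.00228) and Nlrp3 one of 0.24 (SE 0.07, adjusted p = 0.0214). For Casp1 and Casp4 the size depends on the window, since most of their neighbours lie past them in order. The medians removed, 0.235 and 0.231, were below the values of the nearest tested genes (0.39 to 0.62). They were also below the median of the first 308 tested genes of chromosome 9 (0.362). A nearer window was not tested. Gsdmd, Ripk3 and Mlkl were not called, at -0.17, -0.072 and -0.11. The macrophage marker Ptprc on chromosome 1, whose neighbours' median was 0.468, stood at 0.102 and was no longer called (adjusted p = 0.332). These standard errors leave out the error of the neighbours' median.

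**Figure D3:**
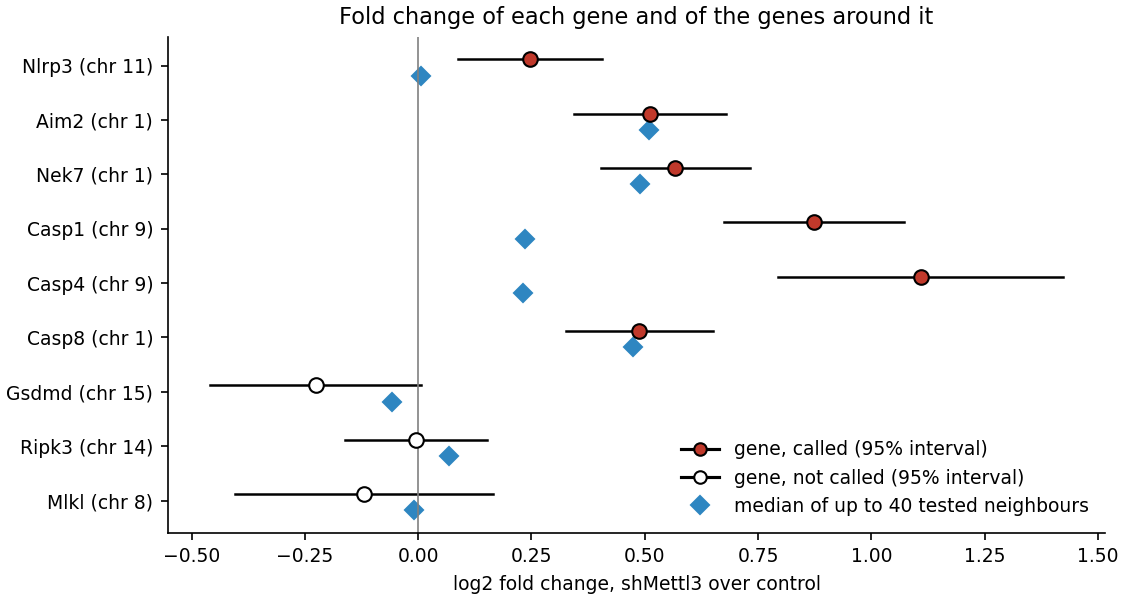
Log2 fold change (shMettl3 over control) of the 9 tested members with 95% intervals (filled circles called, open circles not called) and the median of each one's up to 40 tested neighbours (blue diamonds). For Aim2, Nek7 and Casp8 the diamond lies within the interval, while Casp1 at 0.87 and Casp4 at 1.11 lie well above their diamonds at 0.235 and 0.231.

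Replicate libraries were not equally close for all members. Control 1 was above control 2 in 8 of the 9 tested genes, by a median of 0.139 on the log2 CPM scale, while over all genes tested control 1 was above control 2 in 49.3%. The largest control differences were those of Casp4 (0.356), Mlkl (0.332), Gsdmd (0.32) and Casp1 (0.244), against a median absolute difference of 0.122 over all genes tested. In a list of 9 genes of the interferon route to caspase-11 and gasdermin D, which LPS engages through the type I interferon receptor, control 1 was above control 2 in 8 genes, by a median of 0.614. The shMettl3 libraries were split the same way, with replicate 1 above replicate 2 in all 9 genes of that list and in 7 of the 9 members. For the shMettl3 pair the share over all genes is not given here. The guanylate-binding proteins, which open LPS-bearing bacteria to caspase-11, differed most: Gbp2 had control counts of 1572 and 738 and shMettl3 counts of 3247 and 2399. Their shMettl3 values were all above their controls, but neither Gbp2 (log2 fold change 1.25, SE 0.54), Gbp3 (1.46, SE 0.52) nor Gbp5 (1.06, SE 0.47) was called in the robust edgeR fit; limma-voom called all 3 (adjusted p = 0.00778, 0.0033 and 0.00987). The part of this difference between controls in the Casp4 rise was not tested; the log2 fold change of Casp4 was 0.936 or more when either control was left out, and it was called both times.

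The interferon list had 1 gene that rose and 1 that fell out of 9 (21.4% and 22.3% over all genes tested), with a median log2 fold change of 0.51. Irf1, a transcription factor of interferon response genes, stood at 22.3 and 19.1 CPM against 32.4 and 26.7 CPM (0.51, SE 0.12, adjusted p = 0.00597; without shMettl3 replicate 1, 0.0664). Ifnar2, a chain of the type I interferon receptor, fell by 0.19 (SE 0.07, adjusted p = 0.0404), a call lost without shMettl3 replicate 1 (adjusted p = 0.213) or 2 (0.278). Without robust fitting in edgeR, 5 genes of the list rose instead of 1, as with limma-voom, Gbp2, Gbp3 and Gbp5 among them.

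Counting all 8 lists of related genes together, 61 of 70 listed genes were tested. Of these 12 rose, 10 fell and 39 were not called, with a median log2 fold change of 0.0712. Over all genes tested 21.4% rose and 22.3% fell, the shares to set beside these counts and those of each list. Of the 12 that rose, 4 lie on chromosomes 1 or 9 (Vps4b, Cflar, Birc2 and Birc3), where 9 of the tested list genes and 27.3% of all placed genes that rose lie. The other inflammasome sensors had no call among 7 tested: their log2 fold changes ran from -0.325 to 0.28, with Nlrp1b, the anthrax toxin sensor, at 0.07 (SE 0.09), Naip2, a receptor for the rod protein of bacterial secretion systems, at -0.23 (SE 0.09, adjusted p = 0.0540) and Nlrc4, its partner, at -0.33 (SE 0.17). Without control replicate 2, Naip2 and Nlrc4 were called lower (adjusted p = 0.000856 and 0.0242), and without control replicate 1 they were not (-0.114 and -0.151, adjusted p = 0.222 and 0.512). The Naip genes are close copies of each other, so their counts depend on how reads were shared between them.

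The NLRP3 activation and regulation list had 3 rises and 4 falls among 13 tested genes and a median of 0.0584. These counts are near the shares over all genes tested, of which 21.4% rose and 22.3% fell. P2rx7, the ATP-gated channel whose opening lets potassium out, had control counts of 784 and 688 and shMettl3 counts of 4117 and 4396. Its log2 fold change of 2.49 (SE 0.08, adjusted p = 1.25e-08) was the largest in the 8 lists and kept its call in all 15 alternatives. Kcnk6, a potassium channel, rose by 0.56 (SE 0.08, adjusted p = 0.000273). Trpm2, a cation channel gated by oxidative stress, rose by 0.92 (SE 0.28, adjusted p = 0.0189) from 19 and 27 counts to 43 and 47, a call lost in DESeq2 and without control replicate 1 (adjusted p = 0.0996), shMettl3 replicate 1 (0.0698) or shMettl3 replicate 2 (0.0963). Panx1, the pannexin channel, had 17.1 and 19.5 CPM against 9.04 and 8.33 CPM and fell by 1.08 (SE 0.12, adjusted p = 4.90e-05). Clic1, a chloride channel protein, fell by 0.46 (SE 0.07, adjusted p = 0.000286). Pstpip1, a pyrin-binding protein, fell by 0.35 and Txnip, a thioredoxin-binding protein reported to bind NLRP3, fell by 0.31; both calls were lost without shMettl3 replicate 1 (adjusted p = 0.0666 and 0.152), and that of Txnip also without shMettl3 replicate 2 (0.0513), with library size alone (0.0819), on log2(FPKM + 1) (0.117), log2(FPKM + 0.1) (0.115) and log2(TPM + 1) (0.247). The Pstpip1 call was also lost on log2(TPM + 1) (0.0674). Panx1 and Pstpip1 lie on chromosome 9, and relative to their neighbours they fell by more, at -1.32 and -0.736 (adjusted p = 1.27e-05 and 5e-05). The direction of Txnip turned relative to its neighbours (0.0494), whose median was -0.359.

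Among the genes that act beside gasdermin D in membrane rupture and repair, 1 rose and 3 fell of 7 tested, with a median of -0.209. The shares over all genes tested were 21.4% and 22.3%. Ninj1, which forms the filaments that tear the membrane after gasdermin pores open, had 286 and 296 CPM in the controls and 110 and 119 CPM in the shMettl3 libraries, and fell by 1.34 (SE 0.08, adjusted p = 2.80e-07), a change that kept its call in all 15 alternatives. Vps4b, an ATPase of the membrane repair machinery on chromosome 1, rose by 0.47 (SE 0.08, adjusted p = 0.000665), and by 0.094 relative to its neighbours (adjusted p = 0.36). Its paralog Vps4a fell by 0.26 (adjusted p = 0.0388) and the repair subunit Chmp3 by 0.21 (adjusted p = 0.0322). The Vps4a call was lost in 10 of 15 alternatives, among them without control replicate 2 (adjusted p = 0.134) and without shMettl3 replicate 1 (0.312). The Chmp3 call was lost in 7, among them without shMettl3 replicate 1 (0.278) or 2 (0.123).

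In the caspase-8 and necroptosis complexes, 7 of 15 tested genes rose and none fell (21.4% and 22.3% over all genes tested), with a median of 0.218. Cflar, the caspase-8-like protein that restrains caspase-8, stood at 145 and 127 CPM against 251 and 226 CPM (log2 fold change 0.81, SE 0.09, adjusted p = 3.23e-05). It lies near Casp8 on chromosome 1, and relative to its own neighbours the rise was 0.36 (adjusted p = 0.00681). The ubiquitin ligases Birc2 and Birc3 on chromosome 9 rose by 0.66 (SE 0.12) and 0.54 (SE 0.07), and relative to their neighbours by 0.43 (adjusted p = 0.0133) and 0.31 (adjusted p = 0.00478). Fadd, the adaptor of caspase-8, rose by 0.52 (SE 0.13, adjusted p = 0.00774) and Cyld, a deubiquitinase of RIPK1, by 0.51 (SE 0.09, adjusted p = 0.000761), and relative to their neighbours by 0.52 and 0.48. Ripk1 (0.22, adjusted p = 0.0401) and Xiap (0.29, adjusted p = 0.0449) were each lost in 6 of 15 alternatives, including without control replicate 2 (adjusted p = 0.15 and 0.146), shMettl3 replicate 1 (0.294 and 0.177) or shMettl3 replicate 2 (0.0793 and 0.0666). The list's rises include both the caspase-8 adaptor Fadd and Cflar, which restrains caspase-8, while Ripk3 and Mlkl were not called.

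Of the other caspases, 1 of 5 tested changed, while over all genes tested 21.4% rose and 22.3% fell. Casp9, the initiator of the mitochondrial apoptosis route, fell by 0.28 (SE 0.09, adjusted p = 0.0292), a call lost in 9 of 15 alternatives, among them without control replicate 2 (adjusted p = 0.0646), shMettl3 replicate 1 (0.0619) or shMettl3 replicate 2 (0.252). Of the 2 serpins that inhibit inflammatory or cytotoxic proteases, Serpinb1a fell by 1.77 (SE 0.38, adjusted p = 0.00354) from 58 and 39 counts to 20 and 9, and Serpinb9 was not called (0.23, SE 0.15).

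None of the 3 cytokines of the IL-1 family was called in the robust edgeR fit, though Il1a and Il18 were in other fits of the same 4 libraries. Il1b had control counts of 7227 and 13947 and shMettl3 counts of 7364 and 6402, so the controls differed from each other more than control 1 did from either shMettl3 library (log2 fold change -0.66, SE 0.45, adjusted p = 0.365). Without control replicate 1, Il1b was called lower (-1.07, adjusted p = 1.25e-05), and without control replicate 2 it was not (-0.115, adjusted p = 0.395). Il1a, at 4601 and 7966 against 2841 and 2488 counts, had non-overlapping groups and a log2 fold change of -1.28 (SE 0.38, adjusted p = 0.107), and was called lower in 5 of 15 alternatives: DESeq2 (adjusted p = 0.00739), limma-voom (0.00257), edgeR without robust fitting (0.0022), and without control replicate 1 (1.33e-07) or 2 (5.47e-05). Il18 on chromosome 9 had 304 and 190 counts against 628 and 469 (1.11, SE 0.31, adjusted p = 0.0589), and was called higher in 6 of 15 alternatives: DESeq2 (adjusted p = 0.0204), limma-voom (0.00429), edgeR without robust fitting (0.00413), a replicate block (3.24e-05), and without control replicate 1 (0.0305) or shMettl3 replicate 2 (0.041). Relative to its neighbours, whose median was 0.426, Il18 stood at 0.685 and was not called (adjusted p = 0.173). The cytokine genes thus showed control libraries further apart than Casp1 did. On the log2 CPM scale, control 1 minus control 2 was -0.95 for Il1b, -0.793 for Il1a and 0.671 for Il18, against 0.244 for Casp1.

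**Figure D4:**
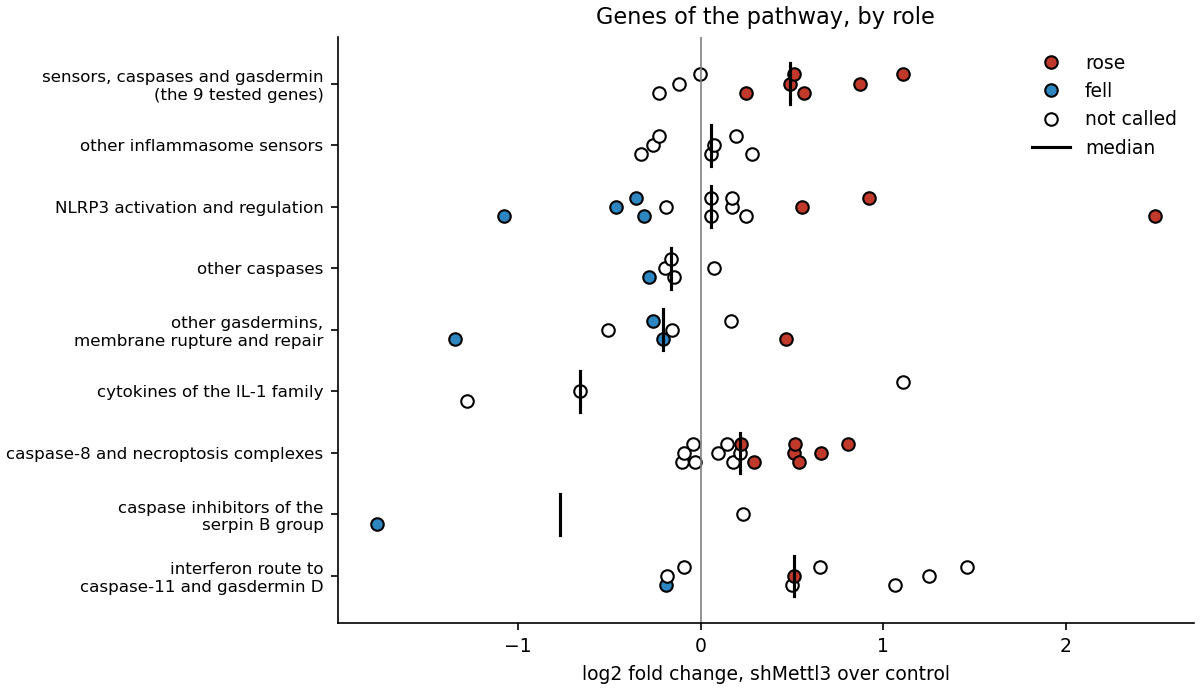
Log2 fold change (shMettl3 over control, horizontal axis) of each tested gene in the member set and in the 8 lists of related genes (rows); red rose, blue fell, open not called, and the black bar is the row's median. The members' median of 0.49 and the interferon median of 0.51 lie to the right, P2rx7 at 2.49 and Ninj1 at -1.34 stand far out, and the other sensors have no filled point.

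The genes whose pattern over the 4 libraries lay nearest to that of Casp4, the tested member with the largest change, were Ift88 (distance 0.042 in log2 CPM deviations from the control mean), Spef1 (0.059) and Col15a1 (0.088). Their log2 fold changes were 1.11 (SE 0.18), 1.16 (SE 0.23) and 1.37 (SE 0.48), with ranges over the libraries of 3.495 to 9.34 CPM, 1.627 to 4.343 CPM and 0.241 to 0.8924 CPM. With 4 libraries such likeness describes only the split between groups and the order within each.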

How the data were processed

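Per the labels' protocols, poly(A)-primed, template-switched and PCR-amplified cDNA was sequenced; the protocol text does not name a step that marks strand, so reads of antisense partners may be counted together. The authors deposited estimated counts, FPKM and TPM for each gene and library, per the file headers. The tools RSEM 1.2.12, Bowtie2 2.2.5 and HISAT2 2.0.4 and the build mm9 are listed per the submitters' processing notes; roles and annotation: not given in the sources used here. Those deposited estimated counts were rounded to whole numbers for testing (1808 genes had values that were not whole, within 1e-06, none of them a member); the table had 0 columns of other samples. Counts were tested with edgeR 4.0.16 in R 4.3.3 (filterByExpr with a minimum count of 10 and total of 15, TMM factors 0.966 to 1.04, robust quasi-likelihood fit, Benjamini-Hochberg adjustment, 0.05). SE is the log2 fold change divided by the square root of F. Alternatives used limma 3.58.1, DESeq2 1.42.0, other scalings, log2(FPKM + 1), log2(FPKM + 0.1) and log2(TPM + 1), a replicate block, each library left out, and the neighbours' median. Groups and replicate numbers came from the titles. An exact two-sided permutation test of 2 against 2 cannot go below p = 0.333, so single values were not tested that way. The code was tested on simulated data. The members, lists and rule for naming genes (all members; per list up to 2 called genes with the largest rise and fall; the 3 nearest patterns to the member with the largest change) were chosen with earlier results of these data known. Kcnk6, Pstpip1, Txnip, Chmp3, Fadd, Cyld, Birc3, Ripk1, Xiap and the uncalled list genes named with values, and the neighbours of Casp1, were named after their values were seen. The reads carry no molecular identifiers, so the limit at 0 counts covers counting error only. Some genes of the lists are not reported here by name.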

Additional observations from a re-analysis of the deposited data

How the results depend on the processing

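With 2 libraries a group, errors rest on 2 residual degrees of freedom per gene plus what edgeR shares across genes, and a left-out library leaves a lone one assumed to vary like the other group. Aim2, Casp1, Casp4, Casp8 and Nek7 kept their rise in all 14 alternatives other than the neighbours' median. Library size alone and log2(TPM + 1) moved the median over all genes, in log2, to 0.11 and 0.14. Leaving out 1 library gave 1503 to 2543 genes higher and 1592 to 2781 lower over all genes, 5 to 6 members higher and 0 to 2 lower, and 8 to 21 list genes higher and 5 to 14 lower. On log2(TPM + 1), 1516 genes were lower. With the neighbours' median removed, 3 members were higher, while over all 11035 genes tested 2057 were higher and 2381 lower. List genes called lower numbered 5 with library size alone, 6 on log2(FPKM + 1), 6 on log2(FPKM + 0.1) and 5 on log2(TPM + 1). In the same order, 1832, 1756, 1758 and 1516 of all genes tested were lower. Same-numbered replicates share only a number (correlation of deviations across genes 0.146, and 2 pairs). The replicate block gave 2548 genes higher and 2568 lower and 1 member lower, Gsdmd at -0.22 (adjusted p = 0.0381). Estimates that changed sign were Ripk3 with library size alone (0.0912), log2(FPKM + 1) (0.0778), log2(FPKM + 0.1) (0.0796), log2(TPM + 1) (0.133), without control replicate 2 (0.0242) and without shMettl3 replicate 1 (0.0068), over a range of -0.0495 to 0.0242 when 1 library was left out; Mlkl with log2(TPM + 1) (0.029) and without control replicate 1 (0.0437), over -0.282 to 0.0437; Mettl4 with library size alone (0.0507), log2(FPKM + 1) (0.144), log2(FPKM + 0.1) (0.164), log2(TPM + 1) (0.202), without control replicate 1 (0.00357; range -0.108 to 0.00357) and with the neighbours' median removed (0.083); and Txnip with the neighbours' median removed (0.0494). The scalings shift every gene by construction; the other causes were not tested.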
